A study of Mus musculus with 11 samples.

Results

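Intermediate filaments are the rope-like fibres of the cytoplasm and of the inner face of the nuclear envelope. The genes described here encode the keratin pair Krt8 and Krt18, the muscle and mesenchymal filament proteins Des, Vim, Nes and Synm, the nuclear lamins Lmna, Lmnb1 and Lmnb2, and the linker Plec, 10 genes of the 50600 listed in the count table. Krt18 was selected on a measured value, its rise at P3 after banding, and the other genes were then chosen as its relatives and partners. For that reason the P3 comparison of banded with sham hearts is described below with no test, and for Krt18 the comparisons of age are descriptions too. All 10 genes passed the filter on low counts.

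Keratins form filaments only as pairs of a type I and a type II chain, and Krt18 is the usual type I partner of the type II keratin Krt8 in simple epithelia. In cardiac muscle the main filament protein is desmin (Des), which ties Z discs to each other, to the intercalated disc and to the nucleus. Vimentin (Vim) is the filament of fibroblasts, endothelium and other mesenchymal cells, and synemin (Synm) and nestin (Nes) join desmin or vimentin filaments. The lamins line the nuclear envelope. B-type lamins are made in both dividing and resting cells, whereas A-type lamins are more abundant in stiff, mature tissue. Plectin (Plec) is a very large cytolinker that connects intermediate filaments to junctions, Z discs and other filament systems.

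RNA-seq libraries came from hearts of C57BL/6 mice (C57Bl/6J in the study's methods) that had pulmonary artery banding (PAB) or sham surgery on P0, within 6 h of birth. PAB narrows the pulmonary artery to the width of a needle and loads the right ventricle. There were 3 libraries of P3 sham, 3 of P3 PAB, 3 of P7 sham and 2 of P7 PAB hearts. No group carries a transgene or a deleted gene. The labels name the tissue as heart and the study's methods as ventricles, so right and left ventricle were not separated, and all cell types are mixed. The labels do not state that each library is a separate animal, and the p-values then measure only the spread between these libraries. In bulk tissue fewer cells of a type and less RNA per cell cannot be told apart.

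Depth was 19274045 to 26820228 counts per library, and the 10 genes together took 0.208% to 0.362% of them. The 6 cardiomyocyte markers summed to between 46235 and 61577 CPM (counts per 1000000, scaled by TMM, the trimmed mean of M-values) in every library, although with banding at P7 Actc1 rose (0.65) and Myh6 (-0.89) and Ryr2 (-0.90) fell, and the lung and other epithelial markers to between 0.0437 and 1.83 CPM. Erythroid markers, which come with blood left in the tissue, summed to between 2246 and 6191 CPM, and at P7 to 2246 to 3042 CPM in sham and 3411 and 3911 CPM in PAB libraries, with no overlap. Their part in the P7 values was not tested. A limit of the P7 comparison stands apart from the genes themselves. In both P7 PAB libraries expression relative to the mean of all libraries decreased with gene length, with slopes of -0.154 and -0.143 log2 units per doubling of exonic length, against -0.028 to 0.068 in the other 9. Xist, transcribed from the inactive X chromosome, was above 10 CPM in all 3 P7 sham libraries, in 1 of 3 P3 sham libraries and in no PAB library. Sex-linked class and operation therefore cannot be told apart at P7 from the P7 libraries alone, and values with the length trend removed or with the class as a term are given where they matter. Only the P3 sham group holds both classes, so the class term is estimated from its 1 library above 10 CPM against the rest of that group. Values with the class term rest on that library and cannot separate class from operation at P7.

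Among the 4 groups the genes spanned a wide range of levels. On the scale of CPM per kb of exon, which allows genes to be compared, desmin was highest in P3 sham hearts at 263.0 ± 19.1 (SD, n = 3), and vimentin followed at 183.6 ± 6.4. Lmnb1 came next at 45.4 ± 3.8 CPM per kb. Nes at 23.2 ± 1.4, Lmna at 23.1 ± 2.9 and Plec at 22.1 ± 0.4 CPM per kb had ranges that overlapped. Lmnb2 stood at 8.75 ± 0.69, Krt18 at 5.21 ± 0.77, Krt8 at 1.80 ± 0.36 and Synm at 0.736 ± 0.106 CPM per kb. In P7 PAB hearts this order had a different middle. Lmna at 23.9 ± 2.0, Lmnb1 at 21.5 ± 0.5, Krt18 at 21.2 ± 4.7 and Nes at 19.9 ± 0.9 CPM per kb (SD, n = 2) lay close together, and the range of Krt18, 17.8 to 24.5, overlapped those of the other 3 genes.

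**Figure D1:**
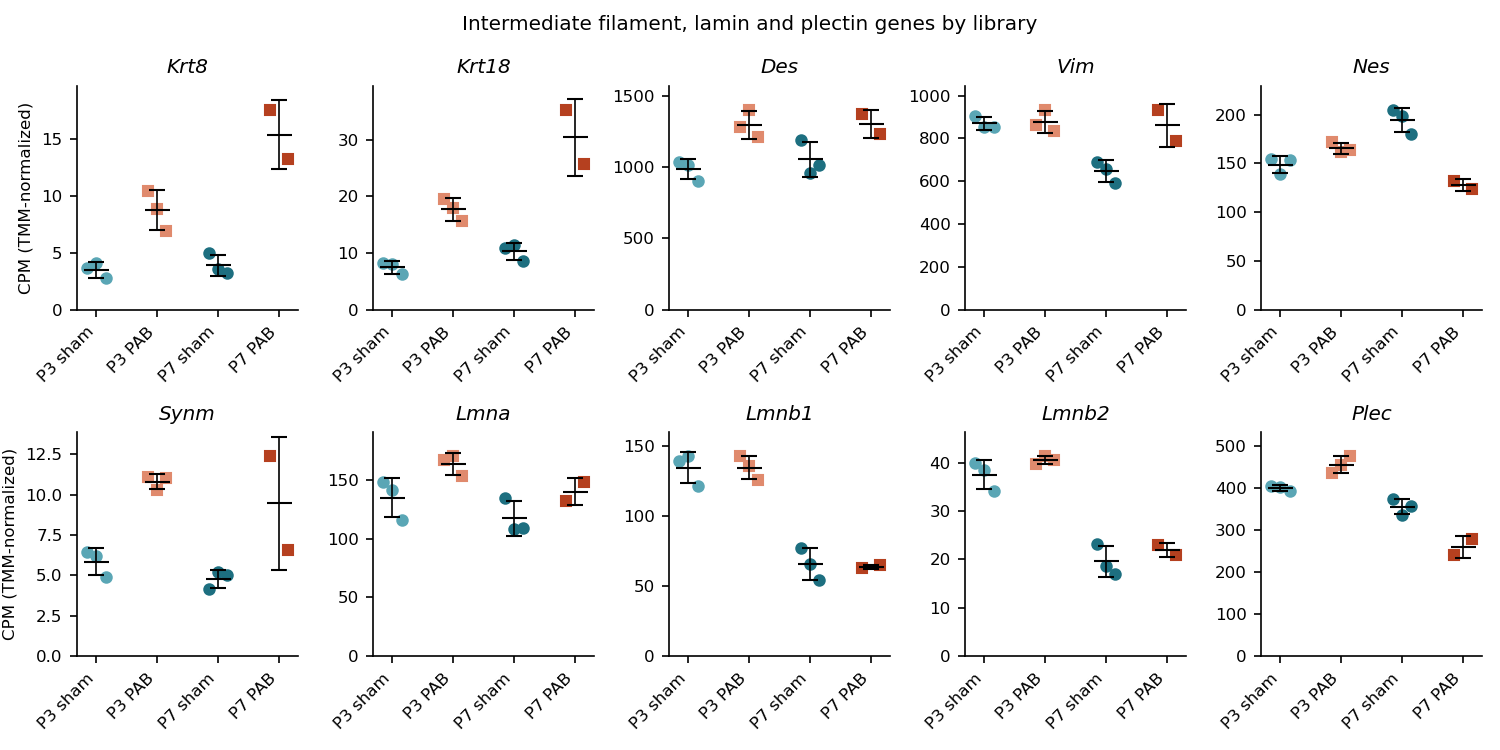
Each panel plots TMM-normalized CPM (vertical axis, linear, starting at 0) of 1 gene in the 11 libraries, with circles for sham, squares for PAB, and the mean ± SD of each group in black. Krt8 and Krt18 are highest in the 2 P7 PAB libraries, and Lmnb1 and Lmnb2 are lower in all 5 P7 libraries than in all 6 P3 libraries.

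In all, 3 of the 10 genes were called higher and 1 lower with banding at P7, where called means an adjusted p of at most 0.05 and a fold change of at least 1.5. Over all genes tested 9.63% were called higher and 8.59% lower. Krt8, Krt18 and Synm rose and Nes fell. With no fold change threshold 7 of 10 passed at P7, where 44.9% of all genes did, and 4 of 9 with age in sham hearts, where 33% did. At P3, in the comparison that selected Krt18, 7 of the 10 genes were higher in all PAB than in all sham libraries and none was lower in all, where 8.65% and 8.02% of all genes tested showed each pattern. Nothing is read from the P3 count, because that comparison chose the genes.

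**Figure D2:**
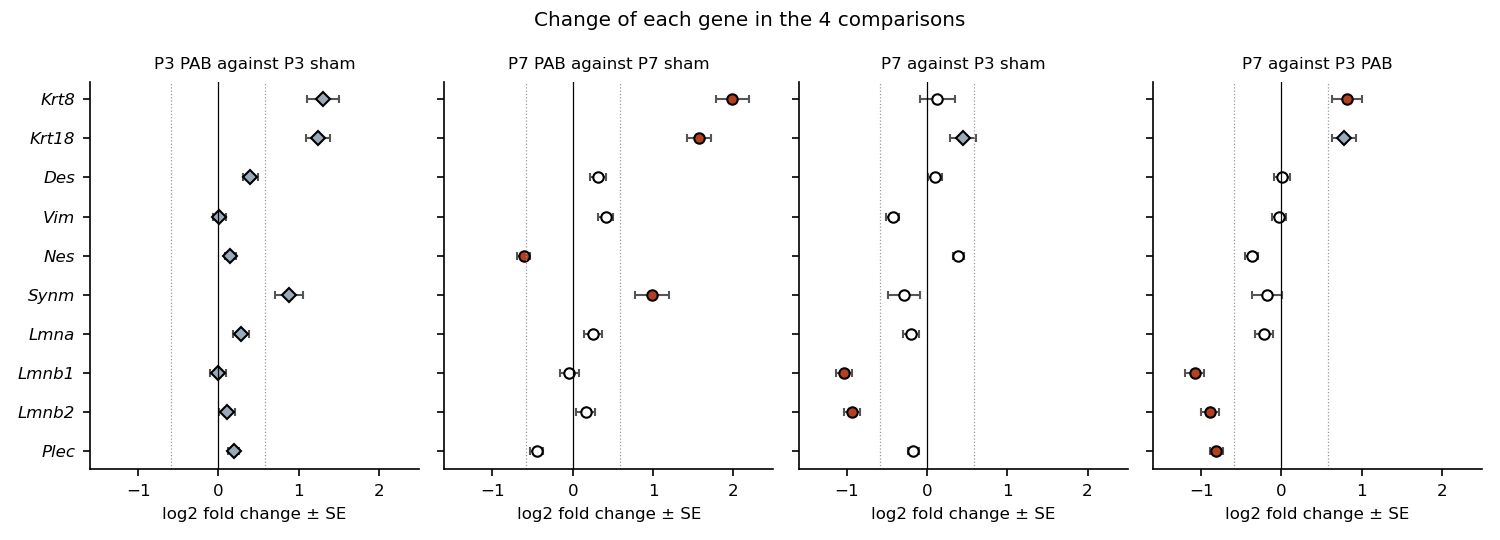
Each panel gives the log2 fold change (horizontal axis) ± SE of the 10 genes in 1 comparison, with filled circles for called genes, open circles for tested genes not called, grey diamonds for values given as descriptions only, and dotted lines at a fold change of 1.5. Krt8, Krt18 and Synm are filled to the right and Nes to the left at P7, and Lmnb1 and Lmnb2 are filled to the left in both comparisons of P7 with P3.

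The keratin pair had the largest fold changes of the 10 genes between P7 PAB and P7 sham hearts, and the P3 values below are a description, since Krt18 was selected on them. Krt8 and Krt18 were both higher in every PAB library than in any sham library of the same age, at P3 and at P7. The genes are neighbours on chromosome 15 (GRCm38), Krt8 at chr15:101996698-102004482 on the minus strand and Krt18 at chr15:102028180-102032027 on the plus strand, with a gap of 23.7 kb and no annotated gene wholly between them. The promoter windows of the 4 genes that were called in the P7 comparison are shown here because those genes moved furthest with banding. Each window runs from 250 bases before to 50 bases after the start of transcription in RefSeq (GRCm38.p6), 5′ to 3′ on the strand of the gene. Capitals mark matches on either strand to the TATA box (TATAAA), the GC box (GGGCGG), the CCAAT box (CCAAT) and the E-box (CANNTG), and also to AP-1 (TGANTCA), the TEAD site (GGAATG) and the serum response factor CArG box, which these 4 windows do not hold.
Krt8, chr15:102004293-102004592, minus strand: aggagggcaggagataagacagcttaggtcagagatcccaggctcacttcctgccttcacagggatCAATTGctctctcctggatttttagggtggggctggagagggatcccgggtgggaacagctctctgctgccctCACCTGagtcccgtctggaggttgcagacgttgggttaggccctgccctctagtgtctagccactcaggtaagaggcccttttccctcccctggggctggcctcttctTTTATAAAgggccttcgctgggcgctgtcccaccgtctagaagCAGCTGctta
Krt18, chr15:102027966-102028265, plus strand: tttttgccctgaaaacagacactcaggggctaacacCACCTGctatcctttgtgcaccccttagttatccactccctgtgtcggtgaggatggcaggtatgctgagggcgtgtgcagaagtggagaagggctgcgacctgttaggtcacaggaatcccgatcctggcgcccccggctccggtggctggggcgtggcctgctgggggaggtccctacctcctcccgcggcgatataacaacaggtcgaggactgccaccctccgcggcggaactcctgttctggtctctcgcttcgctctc
Synm, chr7:67759693-67759992, minus strand: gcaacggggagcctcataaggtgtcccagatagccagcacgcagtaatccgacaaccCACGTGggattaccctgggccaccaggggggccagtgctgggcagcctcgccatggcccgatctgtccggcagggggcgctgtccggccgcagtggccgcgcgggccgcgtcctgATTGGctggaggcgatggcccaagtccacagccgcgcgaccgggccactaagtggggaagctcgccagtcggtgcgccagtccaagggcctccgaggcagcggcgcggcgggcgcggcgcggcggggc
Nes, chr3:87970843-87971142, plus strand: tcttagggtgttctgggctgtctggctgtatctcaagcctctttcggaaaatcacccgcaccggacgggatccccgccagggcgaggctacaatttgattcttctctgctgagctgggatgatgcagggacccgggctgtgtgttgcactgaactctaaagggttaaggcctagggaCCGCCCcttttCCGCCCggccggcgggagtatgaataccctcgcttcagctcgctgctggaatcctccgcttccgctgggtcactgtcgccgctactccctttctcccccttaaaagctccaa

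The Krt8 window holds 3 E-boxes and a TATA box read on both strands at overlapping positions, beginning 1 base and 3 bases before the start. The Krt18 window holds a single E-box, which begins 214 bases before the start. The Nes window has 2 GC boxes, 73 and 62 bases before the start, and the Synm window has a CCAAT box and an E-box. Of 32851 windows of the same length in the table, 72.3% hold an E-box, 37.4% a CCAAT box, 35.7% a GC box, 14.7% a TEAD site, 13.6% a TATA box, 7.81% an AP-1 site and 1.63% a CArG box. No motif of the search was shared by all 4 windows. The matches describe the letters only, and windows of 8 of the 10 genes were searched.

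Krt18 read 8.20, 8.07 and 6.21 CPM in the 3 P3 sham libraries and 19.55, 17.97 and 15.6 CPM in the P3 PAB libraries. The groups did not overlap, and the log2 fold change was 1.24 (SE 0.15). This is the value on which the gene was selected, so it is a description. At P7, in libraries that the selection did not use, Krt18 read 10.9, 11.4 and 8.63 CPM in sham hearts and 35.2 and 25.6 CPM in PAB hearts. Krt18 rose 2.97-fold at P7 (log2 fold change 1.57, SE 0.15, adjusted p = 2.8e-06 by edgeR's quasi-likelihood test over 15808 genes). With the length trend removed the log2 fold change was 1.22, and with the Xist class as a term it was 1.76, with adjusted p of 1.9e-05 and 0.0017.

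Krt8 read 3.69, 4.15 and 2.76 CPM in P3 sham and 10.5, 8.83 and 6.95 CPM in P3 PAB hearts, a log2 fold change of 1.30 (SE 0.20). At P7 it read 4.98, 3.55 and 3.23 CPM in sham and 17.6 and 13.3 CPM in PAB hearts. Krt8 rose 3.97-fold at P7 (log2 fold change 1.99, SE 0.21, adjusted p = 4.7e-06), and the lower PAB library was still above every sham library. The counts behind these levels were small, 60 to 403 reads per library for Krt8 and 135 to 807 for Krt18. The log2 fold change of Krt8 at P7 lay between 1.57 and 2.19 under the 22 alternatives, and the call was kept under each. Part of the Krt8 sequence is nearly shared with the pseudogene Krt8-ps, at 98.6% identity over 941 bases of transcript, and Gm5200 matches Krt18 at 90.5% over 1267 bases. How the counting divided reads between such copies is not given in the sources used here. Nor is the use of strand, and Krt8 shares 101 exonic bases with Gm36026 on the other strand, as Des shares 220 with Gm15179 and Synm shares 426 with Gm45102 and 84 with Ttc23, while Plec shares 205 with Parp10 on its own strand.

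The ratio of Krt18 to Krt8, on the scale of CPM per kb, was 2.65 to 3.07 in P3 sham, 2.55 to 3.06 in P3 PAB, 2.98 to 4.37 in P7 sham and 2.73 and 2.63 in P7 PAB libraries. The ranges overlapped between sham and PAB at P3 and did not overlap at P7, where every sham ratio was higher than both PAB ratios. Across the 11 libraries Krt8 and Krt18 had a Pearson correlation of log2 CPM of 0.973, a description over libraries that share groups. Of 9236 genes with a mean of at least 10 CPM, those most like Krt18 over the 11 libraries were Clu (0.966), Kremen1 (0.960) and Ankrd1 (0.957), and those most like Krt8 were Pcbp4 (0.979), Krt18 (0.973) and Qsox1 (0.970).

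In PAB hearts Krt8 rose from P3 to P7 (log2 fold change 0.82, SE 0.19, adjusted p = 0.0026), whereas in sham hearts it read 0.13 (SE 0.22, adjusted p = 0.68). The test of that difference, the interaction of age and operation, gave 0.69 (SE 0.29, adjusted p = 0.091) for Krt8 and did not pass. It passed when P3 sham replicate 3 (0.83, adjusted p = 0.048) or P7 sham replicate 1 (0.90, adjusted p = 0.028) was left out. With the length trend removed the interaction of Krt8 was 0.46 (adjusted p = 0.26), and without P7 PAB replicate 1 it was 0.47. The rise of Krt8 with age in PAB hearts was no longer called without P7 PAB replicate 1 (0.60, adjusted p = 0.067), and fell below the fold change threshold of 1.5 with the length trend removed (0.58) or with scaling by the total count (0.57). Krt18 had log2 fold changes with age of 0.45 (SE 0.16) in sham and 0.78 (SE 0.15) in PAB hearts, given as descriptions. Scaled by the total count they were 0.14 and 0.53, and without P7 PAB replicate 1 that in PAB hearts was 0.53. With the length trend removed the value in PAB hearts was 0.46.

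Keratins of this pair are also made by the epicardium and other mesothelium, so markers of those cells were read beside them. The 7 epicardial and mesothelial markers measured summed to 118.6 to 126.3 CPM in P3 sham, 116.1 to 130.8 in P3 PAB, 104.0 to 118.4 in P7 sham and 90.6 and 107.3 CPM in P7 PAB libraries. At P7 edgeR and DESeq2 called 0 of the 7 higher in PAB hearts, 0 had an unadjusted p under 0.05 in that direction, and Upk3b (log2 fold change -0.83, adjusted p = 0.0052) and Lrrn4 (-0.86, adjusted p = 0.0056) were called lower. In the lung and other epithelial list none of 7 genes passed the filter, Scgb1a1 was at 0 in every library, and Epcam, Cldn18, Esrp1, Sftpc and Scgb1a1 were at 0 in both P7 PAB libraries. At P3 the sum of that list was higher in PAB hearts with no overlap, at 0.366 to 1.83 CPM against 0.172 to 0.230 CPM in sham hearts, with Sftpc at up to 1.37 CPM in 1 PAB library. Of the epicardial and mesothelial markers, Lrrn4 read 10.0 to 12.7 CPM in P3 PAB against 7.81 to 8.64 CPM in P3 sham, and Upk1b 3.64 to 4.90 against 2.58 to 3.08 CPM, both higher with no overlap, while Upk3b and Msln overlapped. The rest of that list is not given singly here. Its sum overlapped between the groups at P3, and its median log2 fold change was 0.12. The part of epicardial, mesothelial or other epithelial cells in the keratin values was not tested, at P3 or at P7. The atrial list moved with the keratins at P7, from 119.5 to 167.7 CPM in sham to 1423 and 1922 CPM in PAB hearts, with 2 of 5 genes called higher, Nppa (4.40) and Myl4 (1.31), both of which are also made by stressed or fetal ventricle. Among 6 smooth muscle and pericyte markers Cnn1 (2.56) and Tagln (1.19) were called higher, while the list's sum overlapped between the groups at P7. Myh11 (37.3 to 42.3 against 31.5 and 35.3 CPM) and Rgs5 (726.5 to 792.8 against 511.0 and 519.3 CPM) were lower in both P7 PAB libraries and were not called. At P3 the smooth muscle sum was 1188 to 1320 CPM in sham and 1362 to 1675 CPM in PAB hearts, and the atrial sum 211.2 to 312.3 and 403.5 to 473.2 CPM, both with no overlap. Of the 5 atrial genes Nppa alone had a higher mean in P3 PAB hearts, and the median log2 fold change of the list was -0.07. The part of atrial or smooth muscle cells in the keratin values was not tested.

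**Figure D3:**
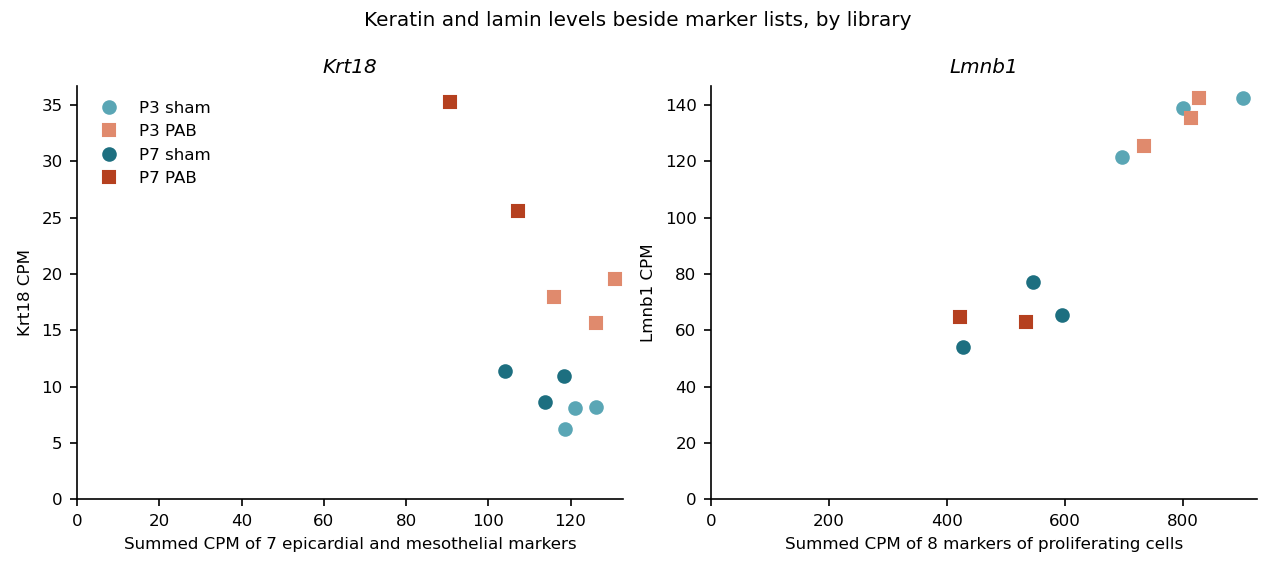
Krt18 CPM is plotted against the summed CPM of 7 epicardial and mesothelial markers (left), and Lmnb1 CPM against the summed CPM of 8 markers of proliferating cells (right), with 1 point per library and both axes from 0. The 2 P7 PAB libraries have the highest Krt18 at marker sums of 90.6 and 107.3 CPM, within or below the range of the sham libraries, whereas Lmnb1 and the proliferation sum are both lower in the 5 P7 libraries.

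Among the muscle and mesenchymal filaments, Synm and Nes moved past the fold change threshold at P7 in opposite directions. Synemin, at chr7:67730160-67759742, read 6.44, 6.20 and 4.88 CPM in P3 sham, 11.1, 10.3 and 11.1 in P3 PAB, 4.14, 5.20 and 5.03 in P7 sham and 12.4 and 6.55 CPM in P7 PAB libraries. The PAB groups lay above the sham groups of their age, but the 2 P7 PAB libraries were far apart. Synm rose 1.98-fold at P7 (log2 fold change 0.99, SE 0.21, adjusted p = 0.0013), and without P7 PAB replicate 1 the value was 0.45 with an adjusted p of 0.082. At P3 its log2 fold change was 0.88 (SE 0.18). With age it did not pass the test in sham (-0.29, adjusted p = 0.29) or in PAB hearts (-0.18, adjusted p = 0.47). Scaled by the total count, Synm was called lower in sham hearts (-0.60), and without P7 PAB replicate 1 it was called lower in PAB hearts (-0.72, adjusted p = 0.0077).

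Nestin, at chr3:87971078-87980451, read 154.5, 138.7 and 153.1 CPM in P3 sham, 171.6, 161.3 and 163.5 in P3 PAB, 204.8, 198.5 and 180.3 in P7 sham and 131.8 and 123.5 CPM in P7 PAB libraries. The P7 sham libraries were the highest of all 11 and the P7 PAB libraries the lowest. Nes fell by 0.61 on the log2 scale at P7 (SE 0.08, adjusted p = 2.7e-05), whereas at P3 the log2 fold change was 0.15 (SE 0.07). The change with banding differed between the ages, with an interaction of -0.76 (SE 0.10, adjusted p = 0.00024). Its fold change at P7 went below 1.5 under several settings, at a log2 fold change of -0.49 with the length trend removed, -0.52 with the Xist class as a term (adjusted p = 0.016), -0.57 without P7 sham replicate 1 and -0.56 without P7 PAB replicate 2. The interaction stayed past its threshold under all 20 alternatives, at -0.81 to -0.66. In the comparisons of age, which share the P7 libraries with the comparison of operations, Nes had 0.39 in sham (SE 0.07, adjusted p = 0.00066) and -0.37 in PAB hearts (SE 0.08, adjusted p = 0.0013), both within a fold change of 1.5. Nestin is also made by endothelial and neural cells. Markers of Schwann and neural cells summed to 12.2 to 14.1 CPM in P7 sham and to 10.6 and 13.9 CPM in P7 PAB libraries, and endothelial markers to 1311 to 1357 and to 996.2 and 1069 CPM, with no overlap between the groups. Emcn went the other way (42.8 to 45.8 against 51.2 and 52.1 CPM), and edgeR and DESeq2 called 0 of the 6 markers lower, with 4 at an unadjusted p under 0.05. The part of endothelial cells in the nestin values was not tested. Scaled by the total count, Nes was called lower with age in PAB hearts (-0.62), and its change in sham hearts was 0.08 (adjusted p = 0.36).

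Desmin, at chr1:75360329-75368579, was the most abundant of the 10 genes. It read 1038, 1018 and 905.1 CPM in P3 sham, 1286, 1403 and 1210 in P3 PAB, 1195, 958.2 and 1013 in P7 sham and 1375 and 1237 CPM in P7 PAB libraries. PAB libraries were above sham libraries at both ages, with log2 fold changes of 0.40 (SE 0.09) at P3 and 0.31 (SE 0.10) at P7. The P7 value had an adjusted p of 0.021 and a fold change below 1.5, so Des was not called, and with the length trend removed the adjusted p was 0.061. With age Des had 0.10 in sham (adjusted p = 0.45) and 0.01 in PAB hearts (adjusted p = 0.96).

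Vimentin, at chr2:13573927-13582826, read 905.8, 854.9 and 852.2 CPM in P3 sham, 864.9, 933.3 and 834.7 in P3 PAB, 692.4, 659.3 and 593.0 in P7 sham and 931.8 and 789.8 CPM in P7 PAB libraries. The 3 P7 sham libraries were the lowest of all 11, and of the P7 PAB libraries 1 lay within the range of the P3 libraries and 1 between them and the P7 sham libraries. The log2 fold change with banding was 0.01 (SE 0.08) at P3 and 0.41 (SE 0.09, adjusted p = 0.0016) at P7, and that with age was -0.43 (SE 0.08, adjusted p = 0.00096) in sham and -0.03 (SE 0.09, adjusted p = 0.83) in PAB hearts. None of these passed the fold change threshold, except that scaling by the total count took the change with age in sham hearts to -0.74. The interaction was 0.40 (SE 0.12, adjusted p = 0.024), below a fold change of 1.5. It was not called when any 1 of 5 libraries was left out, P3 sham replicate 1 (adjusted p = 0.055), P3 PAB replicate 1 (0.053), P3 PAB replicate 3 (0.057), P7 sham replicate 3 (0.063) or P7 PAB replicate 1 (0.14), nor with the Xist class as a term (0.45, adjusted p just above 0.05). Summed fibroblast markers were 5845 to 5932 CPM in P7 sham and 4450 and 5294 CPM in P7 PAB libraries, and the endothelial sum was lower in P7 PAB too. The fibroblast genes did not move together. Col3a1 read 2753 to 2853 CPM in P7 sham and 1686 and 2026 CPM in P7 PAB libraries and Pdgfra 61.8 to 68.8 against 42.8 and 43.1 CPM, and both were called lower. Col1a2 overlapped, and Postn (920.3 to 1061 against 1110 and 1135 CPM) and Tcf21 (18.3 to 21.1 against 22.0 and 22.7 CPM) were higher in both P7 PAB libraries. Macrophage markers summed to 101.9 to 153.3 CPM in P7 sham and to 107.7 and 129.4 CPM in P7 PAB libraries. Genes most like Vim over the 11 libraries were Eef1a1 (Pearson correlation 0.974), Cpsf3l (0.964) and Exosc7 (0.963).

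The ratio of Vim to Des per kb was 0.664 to 0.745 in P3 sham libraries and 0.459 to 0.546 in all 8 others. The P3 sham range lay above that of each other group, and the other 3 groups overlapped.

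**Figure D4:**
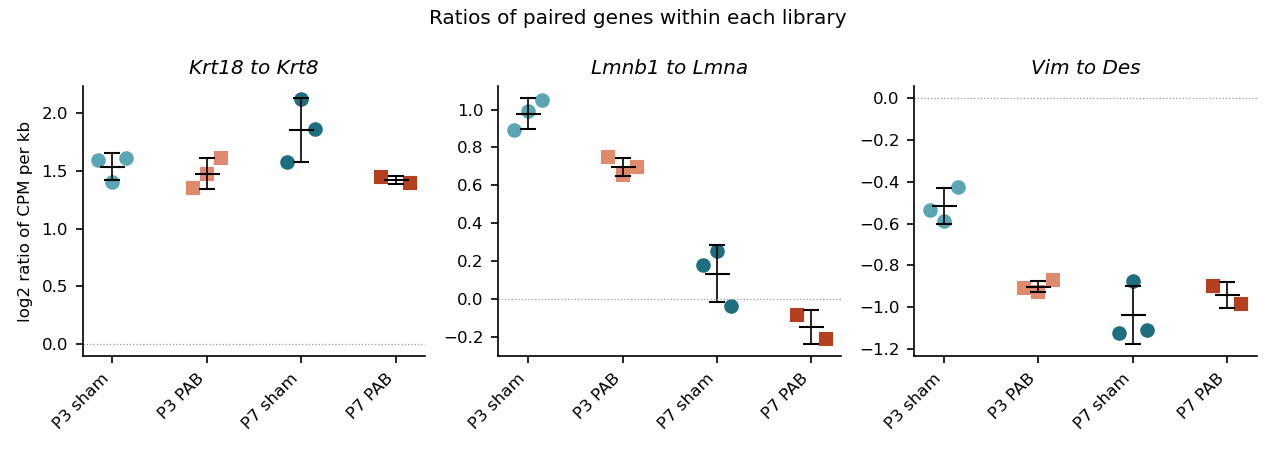
The log2 ratio of CPM per kb within each library (vertical axis) is plotted by group for Krt18 to Krt8, Lmnb1 to Lmna and Vim to Des, with the mean ± SD in black and a dotted line at equal levels. Lmnb1 to Lmna steps down from P3 sham to P3 PAB, P7 sham and P7 PAB with no overlap, whereas the ratios of Krt18 to Krt8 lie within 2.55 to 4.37 in all libraries.

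The B-type lamins fell with age in both operations and did not pass the test with banding at P7. Lmnb1 read 139.1, 142.4 and 121.6 CPM in P3 sham, 142.4, 135.5 and 125.6 in P3 PAB, 77.2, 65.5 and 54.0 in P7 sham and 62.8 and 64.7 CPM in P7 PAB libraries. All P7 libraries were below all P3 libraries. Lmnb1 fell by 1.04 on the log2 scale from P3 to P7 in sham hearts (SE 0.10, adjusted p = 5.2e-06) and by 1.08 in PAB hearts (SE 0.12, adjusted p = 7.5e-06). With banding its log2 fold changes were 0.00 (SE 0.10) at P3 and -0.04 (SE 0.12, adjusted p = 0.82) at P7.

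Lmnb2, at chr10:80901203-80918245, read 39.9, 38.4 and 34.2 CPM in P3 sham, 39.8, 41.3 and 40.6 in P3 PAB, 23.3, 18.6 and 17.1 in P7 sham and 22.9 and 20.8 CPM in P7 PAB libraries. It fell by 0.94 in sham (SE 0.10, adjusted p = 9.3e-06) and by 0.89 in PAB hearts (SE 0.11, adjusted p = 2.5e-05). Banding gave 0.11 (SE 0.10) at P3 and 0.16 (SE 0.12, adjusted p = 0.27) at P7. The Pearson correlation of Lmnb1 and Lmnb2 over the 11 libraries was 0.979.

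Lmna, at chr3:88480147-88509956, which encodes lamins A and C, read 147.7, 141.0 and 115.7 CPM in P3 sham, 167.1, 169.8 and 153.0 in P3 PAB, 134.4, 108.3 and 109.2 in P7 sham and 131.7 and 147.9 CPM in P7 PAB libraries. At P3 the groups did not overlap (0.28, SE 0.10), and at P7 they did (0.25, SE 0.11, adjusted p = 0.076). With age Lmna had -0.20 in sham (adjusted p = 0.14) and -0.22 in PAB hearts (adjusted p = 0.12). Genes most like Lmna over the 11 libraries were 2310022B05Rik (0.986), Yars (0.974) and Spsb4 (0.962).

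The ratio of Lmnb1 to Lmna per kb was 1.86 to 2.07 in P3 sham, 1.57 to 1.68 in P3 PAB, 0.974 to 1.19 in P7 sham and 0.863 and 0.941 in P7 PAB libraries, so the 4 groups did not overlap. Lmnb1 was thus the more abundant transcript per length in every P3 library, and levels were near equal at P7.

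Markers of proliferating cells were read beside the B-type lamins. The 8 markers of proliferating cells summed to 695.9 to 901.4 CPM in P3 sham, 733.2 to 827.5 in P3 PAB, 427.3 to 594.1 in P7 sham and 422.1 and 533.7 CPM in P7 PAB libraries. With age 5 of 8 fell in sham hearts, among them Ccnb1 (-0.88) and Aurkb (-0.82), and 3 of 8 in PAB hearts, Mki67 (-1.26), Top2a (-0.91) and Aurkb (-0.64). The other 5 were not called with age in PAB hearts, among them Cdk1 (0.14, adjusted p = 0.46) and Ccnb2 (-0.05, adjusted p = 0.82). With banding at P7, where Lmnb1 did not pass the test, Cdk1 (0.80) and Ccnb1 (0.62) were called higher and Mki67 (-0.74) lower. Of 9236 genes, those most like Lmnb1 over the 11 libraries were Espl1 (0.995), the separase that frees sister chromatids, Dnajc9 (0.994), a chaperone of histones, and Hunk (0.991). The part of dividing cells in the lamin values was not tested.

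Across the comparisons of age, 2 of 9 tested genes were called lower and 0 of 9 higher in sham hearts, where 5.73% and 5.62% of all genes were called. At an unadjusted p under 0.05 edgeR gave 1 gene higher with age in sham hearts, Nes, and DESeq2 called 0. In PAB hearts 3 of 9 were called lower, Lmnb1, Lmnb2 and Plec, and 1 of 9 higher, Krt8, where 8.2% and 9.5% of all genes were called. The interaction called 1 gene higher, Vim, and 2 lower, Nes and Plec, of 9, at an adjusted p of at most 0.05 with no fold change threshold, where 13.3% and 12.6% of all genes were called. Sham and PAB comparisons of age share their libraries with the comparisons of operations.

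Plectin, at chr15:76170974-76232574, has 18.1 kb of exon and is the longest of the 10 genes. It read 406.3, 402.0 and 393.4 CPM in P3 sham, 435.5, 456.3 and 475.9 in P3 PAB, 374.9, 337.5 and 356.8 in P7 sham and 241.9 and 279.7 CPM in P7 PAB libraries. PAB was above sham at P3 (0.19, SE 0.07) and below it at P7 (-0.45, SE 0.08, adjusted p = 0.00039, fold change below 1.5). Plec fell by 0.81 from P3 to P7 in PAB hearts (SE 0.08, adjusted p = 3.9e-06), against -0.17 in sham hearts (SE 0.07, adjusted p = 0.081), and the interaction was -0.64 (SE 0.11, adjusted p = 0.00085). These values moved with the length trend of the P7 PAB libraries. With the trend removed, the log2 fold change of Plec at P7 was -0.01 (adjusted p = 0.95), that with age in PAB hearts was -0.43 (adjusted p = 0.0026) and the interaction was -0.24 (adjusted p = 0.21). Whether the trend came from the tissue or from the libraries was not tested.

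**Figure D5:**
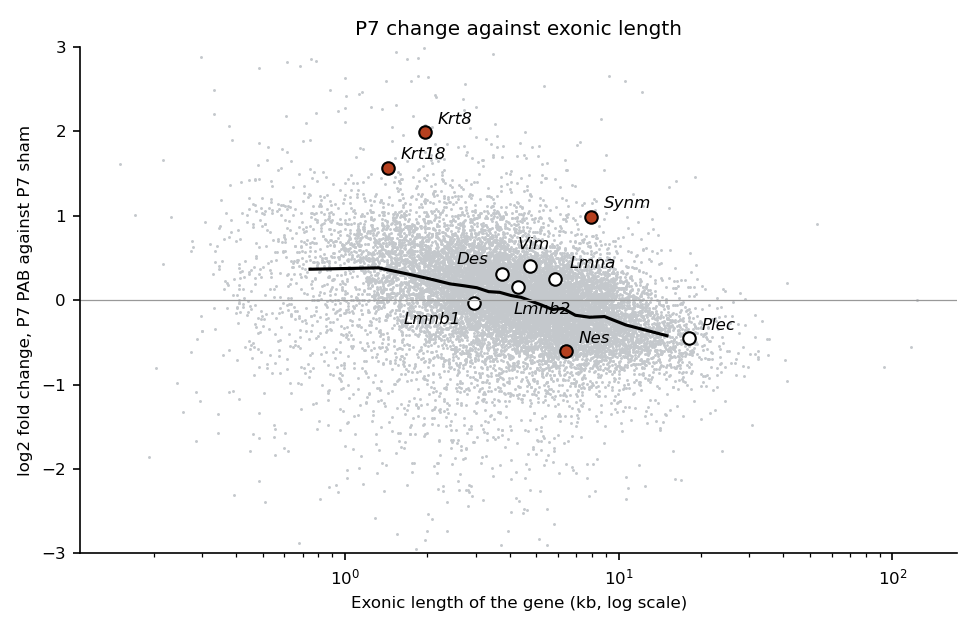
The log2 fold change of P7 PAB against P7 sham (vertical axis) is plotted against exonic length in kb (horizontal axis, log scale) for the 14960 tested genes with a known length, with the running median in black and the 10 genes marked, filled where called, and 62 genes beyond 3 log2 units either way are not drawn. Plec lies close to the median of the longest genes, while Krt8, Krt18 and Synm lie far above the median and Nes below it.

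The other intermediate filament genes did not move as a block. Of 21 listed, 12 passed the filter, and at P7 2 were called higher and 2 lower in PAB hearts, where 9.63% and 8.59% of all genes were. The median log2 fold change was 0.13 against 0.00 over all genes. Krt80 (1.55, adjusted p = 0.00056) and Krt19 (0.76, adjusted p = 0.0012), an epithelial type I keratin that also pairs with Krt8, rose. Krt19 read 3.20 to 3.77 CPM in P7 sham and 5.91 and 5.94 CPM in P7 PAB hearts, and was not called with the length trend removed or with the Xist class as a term. Krt222 (-0.81, adjusted p = 0.00022) and Sync (-0.72, adjusted p = 0.0011), the syncoilin of striated muscle, fell. With age in sham hearts Krt222 (0.97) and Sync (0.77) rose and Krt14 (-2.13), Krt80 (-1.33) and Krt7 (-0.84) fell. With age in PAB hearts edgeR called Krt20, Krt14 (-2.06) and Krt7 (-1.69) lower and 0 genes higher, with 1 higher at an unadjusted p under 0.05. DESeq2 called 2 lower and 0 higher, and Krt20 was not among them (adjusted p = 0.075). Krt20 read 0.162 to 0.563 CPM in P3 PAB and 0 and 0.131 CPM in P7 PAB libraries, at about the level of 3 counts. Krt14 was also near that level in P7 sham libraries, at 0.0486 to 0.296 CPM. Without P3 PAB replicate 1 or P7 PAB replicate 2 the count of genes called lower was 1. In sham hearts it was 1 without P3 sham replicate 2. With scaling by the total count 6 were called lower with age in sham and 5 in PAB hearts.

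Of 11 genes of the desmosome and other cytolinkers tested at P7, edgeR called 6 lower and 0 higher in PAB hearts, with a median of -0.59, where 8.59% of all genes were called lower. At an unadjusted p under 0.05 there was 1 higher, and DESeq2 called 0 higher. Evpl (-1.13, adjusted p = 0.0019), Dst (-0.96, adjusted p = 7.3e-06), Ppl (-0.93, adjusted p = 0.031) and Dsp (-0.81, adjusted p = 8.6e-06) changed most. Desmoplakin (Dsp), which anchors desmin at the desmosome, read 836.5 to 1045 CPM in P7 sham and 536.3 and 568.1 CPM in P7 PAB hearts. Pkp2 (0.16, adjusted p = 0.09) and Tmem43 (0.05, adjusted p = 0.63) had values above 0 and were not called. Many of these transcripts are long, and with the length trend removed 1 of the 11, Evpl, was called lower (-1.01, adjusted p = 0.0052), whereas 3 were with the Xist class as a term, and 3 without P7 sham replicate 3. With age 1 fell in sham hearts, Ppl (-0.73), or 0 without any 1 of P3 sham replicates 1 and 2 and P7 sham replicates 2 and 3, and 5 fell in PAB hearts, led by Ppl (-2.03) and Evpl (-1.12), or 2 with the length trend removed and 8 with scaling by the total count.

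Of 13 genes of the desmin network and its chaperones, edgeR called 3 higher and 0 lower at P7, where 9.63% and 8.59% of all genes were. The median was 0.07. At an unadjusted p under 0.05 there were 3 lower, and DESeq2 called 0 lower. The 3 were the small heat shock proteins Hspb1 (0.96, adjusted p = 7.4e-06), Cryab (0.74, adjusted p = 0.00049), which binds desmin, and Hspb8 (0.60, adjusted p = 0.00091). Cryab read 397.2 to 508.1 CPM in P7 sham and 636.7 and 873.8 CPM in P7 PAB hearts, and Hspb1 read 88.8 to 112.1 and 193.2 and 196.7 CPM. With the length trend removed these 3 were not called, and Dtna (0.66) was called higher and Bag3 (-0.62) lower. Without P7 PAB replicate 1 there was 1 called higher and 1 lower. With age Hspb8 (1.05) rose and Hspb1 (-0.75) fell in sham hearts, where 2 genes were called lower without P3 sham replicate 3 or P7 sham replicate 1, and Hspb8 (1.17), Cryab (0.77) and Hspb7 (0.62) rose and Dmd (-0.64) fell in PAB hearts. With scaling by the total count 3 were called lower with age in sham hearts, and 1 higher and 3 lower in PAB hearts.

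Of 14 genes of the LINC complex and the lamina, which tie lamins to chromatin and to the cytoskeleton, 1 rose and 2 fell at P7, with a median of -0.12. Of all genes tested 9.63% were called higher and 8.59% lower at P7, so nothing is read from these counts. Banf1 (0.69, adjusted p = 3.1e-05), which binds chromatin at the lamina, rose, and the giant nesprins Syne2 (-0.89, adjusted p = 7.9e-06) and Syne1 (-0.71, adjusted p = 2.6e-05) fell. None of the 3 was called with the length trend removed. The number called higher was 2 when P3 PAB replicate 2, P7 sham replicate 1, P7 sham replicate 3 or P7 PAB replicate 2 was left out. With scaling by the total count, which moved the median of all genes by -0.309 with age in sham and by -0.246 in PAB hearts, 5 of the 14 were called lower with age in sham hearts and 5 in PAB hearts. With age Syne3 fell in sham (-0.97, adjusted p = 8e-06) and in PAB hearts (-1.24, adjusted p = 2.6e-06), and in PAB hearts Syne2 (-0.93) and Tmpo (-0.59) fell too. Of the 5 enzymes that process lamins, edgeR and DESeq2 each called 0 in these comparisons, with medians of 0.13 with banding at P7, -0.24 with age in sham and 0.04 with age in PAB hearts. At an unadjusted p under 0.05 edgeR gave 2 higher with banding at P7, 3 lower with age in sham and 1 higher with age in PAB hearts.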

How the data were processed

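RNA-seq of hearts of C57BL/6 mice (C57Bl/6J in the study's methods) covered 11 libraries in 4 groups, taken from the labels. Per the labels and the study's methods, RNA was extracted with Trizol, and STAR 2.5.2b was the authors' aligner, run against GRCm38 and the Gencode annotation. The authors deposited raw counts per gene, 1 column per library, with no normalization. The counting tool, strand setting and Gencode release are not given in the sources used here, and 27 gene names had been turned into dates. Depth was 19274045 to 26820228 counts, and 3 counts correspond to 0.112 to 0.156 CPM.

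Counts were fitted with edgeR 4.0.16 in R 4.3.3 (TMM, filterByExpr, quasi-likelihood test, all 11 libraries in 4 groups, 15808 genes tested). Genes were called at an adjusted p (Benjamini-Hochberg, over all genes tested) of at most 0.05 and a fold change of at least 1.5, except in the interaction, which had no fold change threshold. Standard errors are those of the log2 fold change. Likeness used log2 CPM with a prior count of 2. Between libraries of a group the chi-square per gene was 4.17 to 12.2, above sampling noise. Alternatives were DESeq2 1.42.0, total count scaling, RLE size factors, other filters, no fold change threshold, a fit of the groups compared, a replicate block, removal of the trend with gene length (lowess, span 0.3), the Xist class as a term, and leaving out each library. Lengths came from GENCODE M21 for 94.6% of the genes tested, similar transcripts from BLAST+ 2.17.0 (at least 300 aligned bases), promoter windows from RefSeq, and figures from Python 3.11.15 with matplotlib 3.10.9. Scripts were tested on simulated data. With 200 genes changed 2-fold among 15547 in the P7 comparison, 95.5% were recovered with 9 false calls, and with a simulated length trend among 15569 genes there were 72 false calls, or 8 after its removal.

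The members, the partner lists and the marker lists were chosen with earlier results of these data known. Named genes were the members, up to 4 called genes of the largest change per partner list and direction, the 3 genes most like each of 5 members, and marker genes that moved beside a member. Genes named for how a setting moved their call, such as Dtna and Bag3, were chosen after their values were seen.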

Additional observations from a re-analysis of the deposited data

Results flagged for a closer look

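The change with banding differed between P7 and P3 for 3 of the 9 genes tested, by the interaction of age and operation in the edgeR fit, where 13.3% of all genes were called higher and 12.6% lower. For Nes the log2 fold change at P7 minus that at P3 was -0.76 (adjusted p = 0.00024), from 0.15 at P3 to -0.61 at P7. For Plec it was -0.64 (adjusted p = 0.00085), from 0.19 to -0.45, and for Vim 0.40 (adjusted p = 0.024), from 0.01 to 0.41. The call of Vim was lost when any 1 of 5 libraries was left out, with adjusted p of 0.053 to 0.14, and with the Xist class as a term (adjusted p just above 0.05). With the trend of the libraries with gene length removed, the value of Plec was -0.24 (adjusted p = 0.21). No group held enough libraries for a test of single outlying libraries, and every column of the table was used.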

How the results depend on the processing

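Of 10 genes, 4 were called between P7 PAB and P7 sham, or 7 with no fold change threshold, where 44.9% of all genes passed. With age in sham hearts 2 of 9 were called, or 4 with scaling by the total count, which moved the median of all genes by -0.309. With no fold change threshold 4 of 9 were called there, where 33% of all genes passed. With age in PAB hearts 4 of 9 were called, or 2 with the length trend removed and 2 with the replicate block and the length trend removed together. The other 81 recomputed counts were within 1.5 times the count reported, those that left out 1 library among them. No log2 fold change of a called gene changed sign. That of Krt18 at P3 stayed within its spread in all 21 alternatives, but the gene was selected on this value, so this is a description only. With the replicate block and the length trend removed, Krt18 with age in PAB hearts was 0.36, against 0.78 as reported. With the replicate block alone the counts were 4 at P7, 2 with age in sham hearts, 4 with age in PAB hearts and 3 in the interaction, all as reported. Of 15 same-numbered pairs of libraries, 1 had a correlation of deviations over 0.1 (range -0.1 to 0.144). In 16 of 30 comparisons of a library with another group, the highest correlation was with the same number. Whether the replicate numbers mark a shared batch or litter was not tested. A fit of fewer groups and a removed fold change threshold do not apply to the interaction. Counts of partner genes under these settings were added after seeing the data. The P7 PAB group has 2 libraries, and leaving 1 out assumes that the other varies as the rest do. Krt8, Krt18 and Synm had low counts, and the SD between their 2 P7 PAB libraries was 19.9%, 22.4% and 43.4% of the mean. The part of counting noise in that spread was not tested.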
